A study of Arabidopsis thaliana with 12 samples.

Results

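The light and shade signalling regulators are 10 transcription regulator genes of Arabidopsis thaliana, taken by their AGI locus from the 33602 genes in the count table. They are PIF1 (AT2G20180), PIF3 (AT1G09530), PIF4 (AT2G43010), PIF5 (AT3G59060), HFR1 (AT1G02340), PIL1 (AT2G46970), ATHB2 (AT4G16780), HY5 (AT5G11260), HYH (AT3G17609) and BBX32 (AT3G21150). The choice was made with the expression values of these seedlings known: BBX32 and HYH were selected on their lower level in jazQ than in Col-0. For that reason the values of all 10 genes in jazQ relative to Col-0 are given as a description, and BBX32 and HYH are tested only between jazQ mycT and mycT, whose levels the selection did not use. The Col-0 and jazQ libraries still enter the estimate of spread in that test, so BBX32 is also given from a fit without them. All 10 genes passed the filter on low counts.

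RNA was sequenced from whole seedlings, roots included, that had grown for 8 d in continuous light on sucrose medium. There were 4 genotypes with 3 biological replicates each, every replicate a pool of about 200 seedlings. Col-0 is the wild type and the ecotype of every line. jazQ carries mutations in JAZ1, JAZ3, JAZ4, JAZ9 and JAZ10, which encode repressors of jasmonate signalling. mycT combines the insertion alleles jin1-7/myc2-1, myc3-1 and myc4-1 in genes whose products are transcription factors that those repressors bind. jazQ mycT carries all of these mutations, and no line received jasmonate. The mutations are constitutive and present in every cell of the plant. The Col-0 and jazQ libraries also served an earlier study, for which they were grown and processed alongside the mycT and jazQ mycT material. No source used here gives the time of harvest.

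Library totals ranged from 12336090 to 26347184 counts. JAZ1 was at 51.1 ± 8.08 TPM (mean ± SD, n = 3) in Col-0 and 37.6 ± 7.75 TPM in mycT. The lines with jaz mutations had less, 5.33 ± 0.701 TPM for jazQ and 4.87 ± 0.562 TPM for jazQ mycT. TPM is a level scaled for transcript length and for the library total, so that it can be compared between genes. MYC2 transcript was still counted in mycT, at 16.8 ± 3.09 TPM relative to 26.03 ± 2.73 TPM in Col-0. Transcripts of 4 rRNA genes took 6.02% of the counts in jazQ mycT replicate 1 and 2.56% in mycT replicate 1, relative to 0.403 to 1.18% in the other libraries. Of 11 root marker genes, 10 were tested, and NRT2.1 was too low to test. In jazQ mycT relative to mycT, 4 (CASP1, TIP2;3, PHT1;1 and IRT1) were lower (edgeR), beside 3.77% of all genes tested. The count was 2 without mycT replicate 1, jazQ mycT replicate 1 or jazQ mycT replicate 3. Values were negative for 9 of the 10 and positive for WER, which was not called (log2 fold change 0.35). The 4 called genes had the highest means of the list in every genotype, so they weigh most in its sum. The summed TPM of the root markers was 136.8 to 174.8 in jazQ mycT, 200.0 to 228.2 in mycT, 196.5 to 211.4 in Col-0 and 180.3 to 193.9 in jazQ. For 7 shoot marker genes the sums were 20760 to 27590, 25310 to 29170, 21640 to 23580 and 23550 to 25490 in the same order. In whole seedlings, fewer cells of a type and less RNA per cell cannot be told apart.

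The products of these genes act downstream of the phytochromes and cryptochromes. Phytochrome-interacting factors (PIFs) are basic helix-loop-helix (bHLH) proteins that bind the G-box CACGTG and the related PBE-box CACATG, drive elongation in darkness and shade, and are inactivated or degraded after phytochrome is activated by light. HY5 and HYH are basic leucine zipper proteins that bind ACGT-core elements and promote seedling de-etiolation, and the COP1/SPA ubiquitin ligase removes them in darkness. B-box zinc finger (BBX) proteins raise or lower the activity of HY5, and the atypical bHLH proteins HFR1 and PIL1 restrain the PIFs.

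The 250 bases upstream of each annotated gene start were scanned on both strands for the G-box, the PBE-box and the ACGT core, which lies inside every G-box. Among 27443 protein-coding genes of the TAIR10.1 assembly, 6.49% held a G-box, 11.1% a PBE-box and 44.1% an ACGT core in a window of this length. Of the 10 regulators, PIF5 alone held a G-box, 165 bases before its start, and HY5 alone held a PBE-box. In the window of HY5, 50 of the bases lie inside the neighbouring gene AT5G11270. PIF4 held 3 ACGT cores, PIL1 held 2, and HYH and HY5 held 1 each outside a G-box. The window of BBX32 held none of the letters, and 202 of its bases lie inside the neighbouring gene AT3G21160, so it is not shown. Those of PIF1, PIF3, HFR1 and ATHB2 held none. The windows of HFR1, HYH and PIF5 are shown with that of BBX30, the B-box gene with the lowest value in jazQ mycT relative to mycT, because the levels of HFR1, HYH and BBX30 are described at length here and PIF5 carries the G-box of the group. Sequences are from RefSeq TAIR10.1, read 5′ to 3′ on the strand of the gene and ending 1 base before its start, with matches in capitals. HFR1 spans chr1:465616-467880 on the minus strand, HYH chr3:6023844-6024710 on the plus strand and PIF5 chr3:21827905-21830837 on the minus strand.
HFR1: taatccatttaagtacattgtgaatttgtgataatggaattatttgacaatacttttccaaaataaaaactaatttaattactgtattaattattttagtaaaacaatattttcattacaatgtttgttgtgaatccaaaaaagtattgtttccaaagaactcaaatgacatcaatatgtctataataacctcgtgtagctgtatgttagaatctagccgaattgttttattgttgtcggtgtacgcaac
HYH: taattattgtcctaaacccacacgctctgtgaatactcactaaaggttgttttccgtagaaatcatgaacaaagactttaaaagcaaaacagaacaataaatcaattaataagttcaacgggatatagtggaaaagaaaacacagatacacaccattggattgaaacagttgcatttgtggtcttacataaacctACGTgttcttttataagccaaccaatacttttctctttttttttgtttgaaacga
PIF5: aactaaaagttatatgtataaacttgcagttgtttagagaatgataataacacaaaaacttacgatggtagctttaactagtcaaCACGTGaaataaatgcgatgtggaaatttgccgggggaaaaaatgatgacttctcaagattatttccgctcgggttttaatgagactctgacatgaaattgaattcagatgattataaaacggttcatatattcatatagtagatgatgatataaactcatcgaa
BBX30: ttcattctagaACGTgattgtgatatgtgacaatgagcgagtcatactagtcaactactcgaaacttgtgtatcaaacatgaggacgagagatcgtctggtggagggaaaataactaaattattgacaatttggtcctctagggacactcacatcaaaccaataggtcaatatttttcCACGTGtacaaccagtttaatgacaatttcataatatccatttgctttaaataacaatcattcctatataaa
The window of HFR1 has no capital, that of HYH has an ACGT core, and that of BBX30 has a G-box 72 bases before the start and a further ACGT core. A match is only a run of letters, and no binding was measured.

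By mean TPM over the 12 libraries, HYH was the most abundant of the 10 (98.8), followed by PIF5 (76.0), HY5 (37.0), PIF4 (30.8), PIF3 (24.5), PIF1 (17.7), ATHB2 (12.2), BBX32 (11.02), HFR1 (5.86) and PIL1 (0.382). The library ranges of HYH and PIF5 overlapped, as did those of HY5 with PIF4 and of PIF4 with PIF3, while every PIF5 library lay above every HY5 library. The regulators differed in how far they varied. The highest library exceeded the lowest by 6.54-fold for BBX32, 6.58-fold for PIL1 and 2.95-fold for HFR1. For the other 7 genes this ratio was between 1.485 and 1.604.

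**Figure D1:**
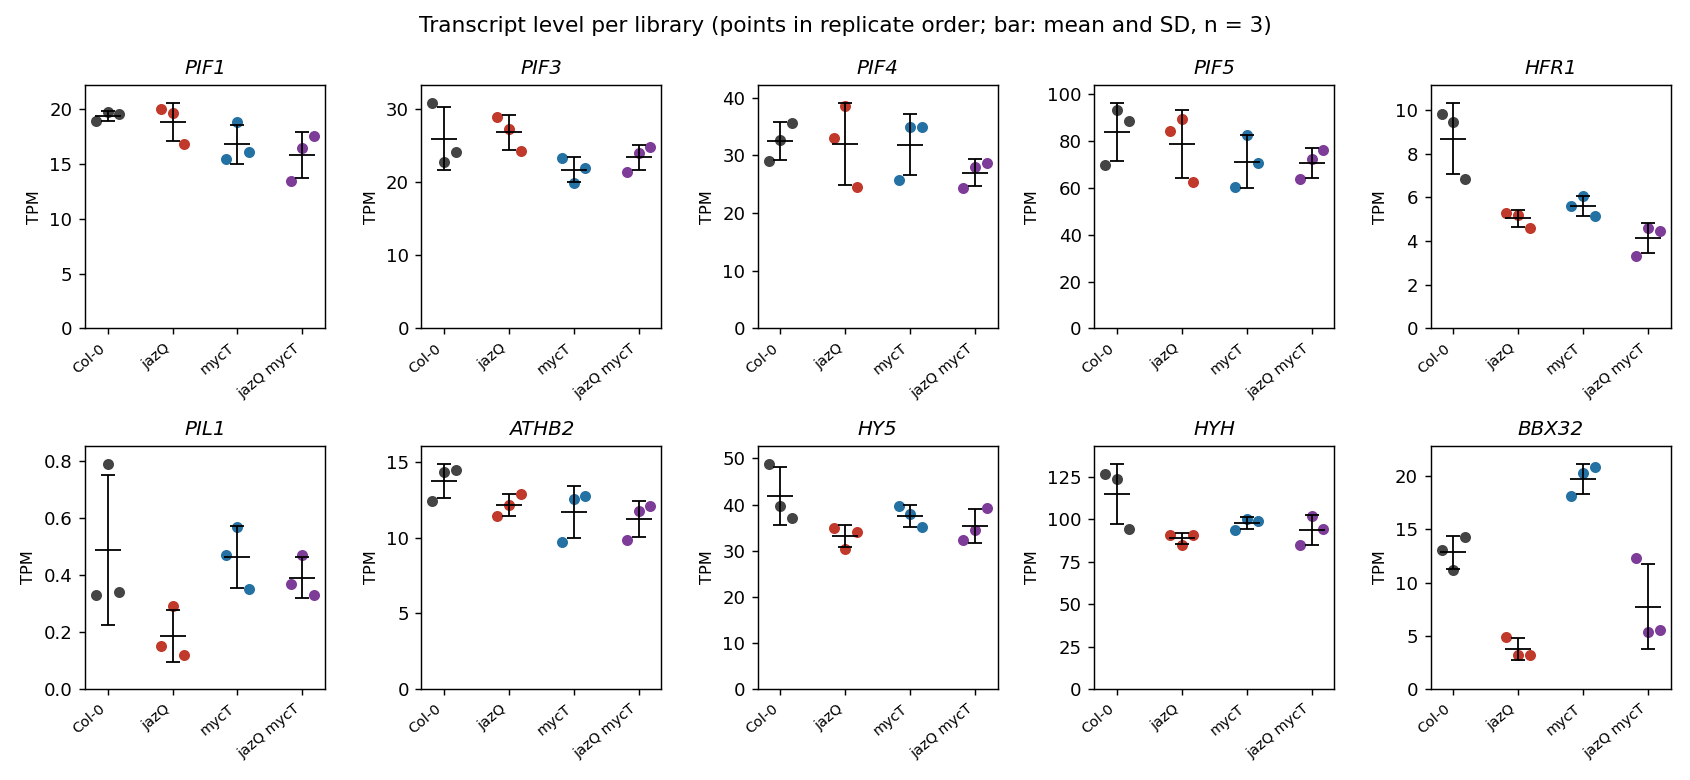
Level of each of the 10 regulators in TPM (vertical axes, each from 0) in every library of the 4 genotypes; points are libraries, in replicate order, and black bars give the mean and SD of 3. BBX32 runs from 3.18 to 20.8 TPM, with its lowest values in jazQ and its highest in mycT, whereas the PIF panels stay nearly level.

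PIF levels were close in all 4 genotypes. PIF1, which restrains seed germination in darkness, was at 18.9, 19.8 and 19.6 TPM in Col-0, at 20.0, 19.7 and 16.9 TPM in jazQ, at 15.4, 18.8 and 16.1 TPM in mycT and at 13.5, 16.5 and 17.5 TPM in jazQ mycT. The mycT and jazQ mycT libraries all lay below those of Col-0, but neither difference passed the test. In jazQ mycT the log2 fold change was −0.21 ± 0.08 SE (edgeR quasi-likelihood test with Benjamini-Hochberg adjustment over 20888 genes, adjusted p = 0.182). In mycT it was −0.11 ± 0.08 SE (edgeR, adjusted p = 0.524). PIF1 overlaps AT2G20170 on the opposite strand, and that gene had at most 1 count per library. PIF3, which represses greening in dark-grown seedlings, was at 30.9, 22.8 and 24.2 TPM in Col-0, 29.0, 27.3 and 24.3 TPM in jazQ, 23.4, 19.9 and 21.9 TPM in mycT and 21.5, 24.0 and 24.8 TPM in jazQ mycT. Those ranges overlapped in each comparison made here, while jazQ and mycT, which were not compared, did not overlap.

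PIF4, the PIF best known for elongation at warm temperature, was at 29.0, 32.8 and 35.7 TPM in Col-0 and at 24.3, 28.0 and 28.6 TPM in jazQ mycT. All 3 jazQ mycT libraries were lower, and the difference did not pass the test (log2 fold change −0.17, 95% interval −0.49 to 0.15, adjusted p = 0.559). In jazQ PIF4 ranged from 24.5 to 38.6 TPM and in mycT from 25.8 to 34.9 TPM, and both ranges overlapped that of Col-0. PIF5, which acts with PIF4 in shade and diurnal elongation, had means of 83.7 ± 12.3, 78.5 ± 14.4, 71.1 ± 11.2 and 70.6 ± 6.50 TPM (SD, n = 3) in Col-0, jazQ, mycT and jazQ mycT. Its groups overlapped in every comparison.

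Tested between jazQ mycT and mycT, the log2 fold changes of the PIFs were −0.09 (95% interval −0.27 to 0.09) for PIF1, 0.11 (−0.14 to 0.36) for PIF3, −0.23 (−0.55 to 0.09) for PIF4 and −0.01 (−0.32 to 0.29) for PIF5. None of the 4 passed (edgeR, lowest adjusted p = 0.379, for PIF4).

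Among the regulators associated with shade, HFR1 had the clearest differences. HFR1 binds PIFs and keeps them from DNA, and its transcript rises in shade. It was at 9.82, 9.43 and 6.82 TPM in Col-0, 5.29, 5.21 and 4.61 TPM in jazQ, 5.60, 6.07 and 5.14 TPM in mycT and 3.33, 4.58 and 4.46 TPM in jazQ mycT. All 9 mutant libraries lay below all 3 Col-0 libraries, and the 3 jazQ mycT libraries lay below all others.

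HFR1 fell in jazQ mycT relative to Col-0 by 0.99 ± 0.14 on the log2 scale (SE, edgeR adjusted p = 0.00124), and without jazQ mycT replicate 1 by 0.91 (adjusted p = 0.00806). The Col-0 libraries of this test also entered the comparison that the selection used. In mycT the difference from Col-0 was −0.53 ± 0.14, which did not pass (adjusted p = 0.0731). Relative to mycT, its log2 fold change in jazQ mycT was −0.46 ± 0.14 (adjusted p = 0.0740). Without Col-0 replicate 3, the lowest Col-0 library for HFR1, both passed in edgeR, with log2 fold changes of −0.66 (adjusted p = 0.0214) and −0.45 (adjusted p = 0.0398). That was the only call among 21 alternatives for the first comparison and 22 for the second. The adjusted p reached 0.236 and 0.253 over those tests. The second comparison holds no Col-0 library, so the one left out entered it only through the shared fit. Relative to jazQ, the value in jazQ mycT was −0.20 (95% interval −0.52 to 0.12, adjusted p = 0.556). The interaction, which is the effect of the myc mutations in jazQ minus their effect in Col-0, was 0.33 (95% interval −0.11 to 0.77, adjusted p = 0.575), so a difference between those effects was not shown.

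PIL1, another shade-induced bHLH gene, was hardly counted in this continuous light, with 2 to 14 counts per library. It was at 0.33, 0.79 and 0.34 TPM in Col-0, 0.15, 0.29 and 0.12 TPM in jazQ, 0.47, 0.57 and 0.35 TPM in mycT and 0.37, 0.47 and 0.33 TPM in jazQ mycT. The jazQ libraries were the lowest, and jazQ mycT did not overlap with them. That last difference, 1.13 on the log2 scale with a 95% interval from 0.08 to 2.18, did not pass the test (edgeR, adjusted p = 0.289). ATHB2, a homeodomain-leucine zipper gene used as an early marker of shade, had means of 13.7 ± 1.15, 12.2 ± 0.735, 11.7 ± 1.72 and 11.2 ± 1.19 TPM (SD, n = 3) in Col-0, jazQ, mycT and jazQ mycT. Its log2 fold change in jazQ mycT relative to mycT was −0.04 (95% interval −0.27 to 0.18), and relative to Col-0 −0.19 (−0.41 to 0.03), neither of which passed. For ATHB2 the jazQ mycT libraries all lay below those of Col-0.

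HY5 was at 48.9, 39.8 and 37.0 TPM in Col-0, 34.9, 30.5 and 34.1 TPM in jazQ, 39.7, 38.0 and 35.1 TPM in mycT and 32.2, 34.4 and 39.3 TPM in jazQ mycT. The jazQ libraries lay below those of Col-0 without overlap, and the other genotypes overlapped with Col-0. HY5 had log2 fold changes of −0.09 (95% interval −0.31 to 0.13) in jazQ mycT relative to mycT and 0.19 (−0.03 to 0.41) relative to jazQ, and neither passed (edgeR, adjusted p = 0.644 and 0.396).

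HYH, the close homologue of HY5, was at 127, 124 and 94.4 TPM in Col-0, 90.9, 85.0 and 90.6 TPM in jazQ, 93.8, 100.1 and 99.4 TPM in mycT and 84.8, 102 and 94.3 TPM in jazQ mycT. The Col-0 replicates were widely spread, and Col-0 replicate 3 lay among the mycT and jazQ mycT libraries. The log2 fold change in jazQ relative to Col-0, the value behind its selection, was −0.37. In that comparison BBX32, PIL1 and HFR1 had larger falls than HYH, and HY5 had −0.34, all as descriptions. Between jazQ mycT and mycT, which the selection did not use, HYH gave −0.06 (95% interval −0.24 to 0.12) and did not pass (edgeR, adjusted p = 0.725). The log2 fold change of HYH was −0.11 in mycT and −0.17 in jazQ mycT, each relative to Col-0 and untested.

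BBX32 encodes a B-box protein that binds BBX21 and lowers light responses. The gene lies at chr3:7412445-7413727 on the minus strand. It was at 13.1, 11.2 and 14.3 TPM in Col-0, 4.92, 3.20 and 3.18 TPM in jazQ, 18.2, 20.3 and 20.8 TPM in mycT and 12.3, 5.35 and 5.54 TPM in jazQ mycT. Col-0, jazQ and mycT did not overlap with each other, and mycT was highest. The jazQ mycT replicates were split, with replicate 1, the library richest in rRNA, within the Col-0 range and the other two just above jazQ.

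The log2 fold change of BBX32 in jazQ relative to Col-0, which the selection used, was −1.76. In mycT relative to Col-0 it was 0.70, and in jazQ mycT it was −0.58 relative to Col-0 and 1.17 relative to jazQ, all as descriptions. Between the genotypes whose levels the selection did not use, BBX32 was lower in jazQ mycT than in mycT, at −1.28 ± 0.29 on the log2 scale, and passed with all 12 libraries in the fit (SE, edgeR, adjusted p = 0.02). With the mycT and jazQ mycT libraries alone in the fit it did not pass (−1.27, adjusted p = 0.0546). All 3 jazQ mycT libraries were lower than every mycT library. Without jazQ mycT replicate 1 the value was −1.91 (adjusted p = 0.00012). Without mycT replicate 1, mycT replicate 2, jazQ mycT replicate 2 or jazQ mycT replicate 3 it did not pass, with values of −1.31, −1.28, −1.06 and −1.04 and adjusted p of 0.0525, 0.0532, 0.0749 and 0.084. Without jazQ mycT replicate 1, the untested values of jazQ mycT were −1.21 relative to Col-0 and 0.54 relative to jazQ. The untested interaction was 0.47 with all libraries and −0.15 without that one.

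AT3G21140 overlaps BBX32 on the same strand, and reads of the shared stretch could have been divided between them. AT3G21140 varied little, from 17.1 to 22.8 TPM. Its difference between jazQ mycT and mycT was 0.02 on the log2 scale (edgeR, adjusted p = 0.935). The root marker sum, like BBX32, was lower in jazQ mycT than in mycT. Within jazQ mycT the sums were 136.8, 174.8 and 153.5 for replicates 1, 2 and 3, and BBX32 was at 12.3, 5.35 and 5.54 TPM. In jazQ the sums were 180.3 to 193.9, and BBX32 was at 3.18 to 4.92 TPM. The part of the root markers in the BBX32 result was not tested.

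**Figure D2:**
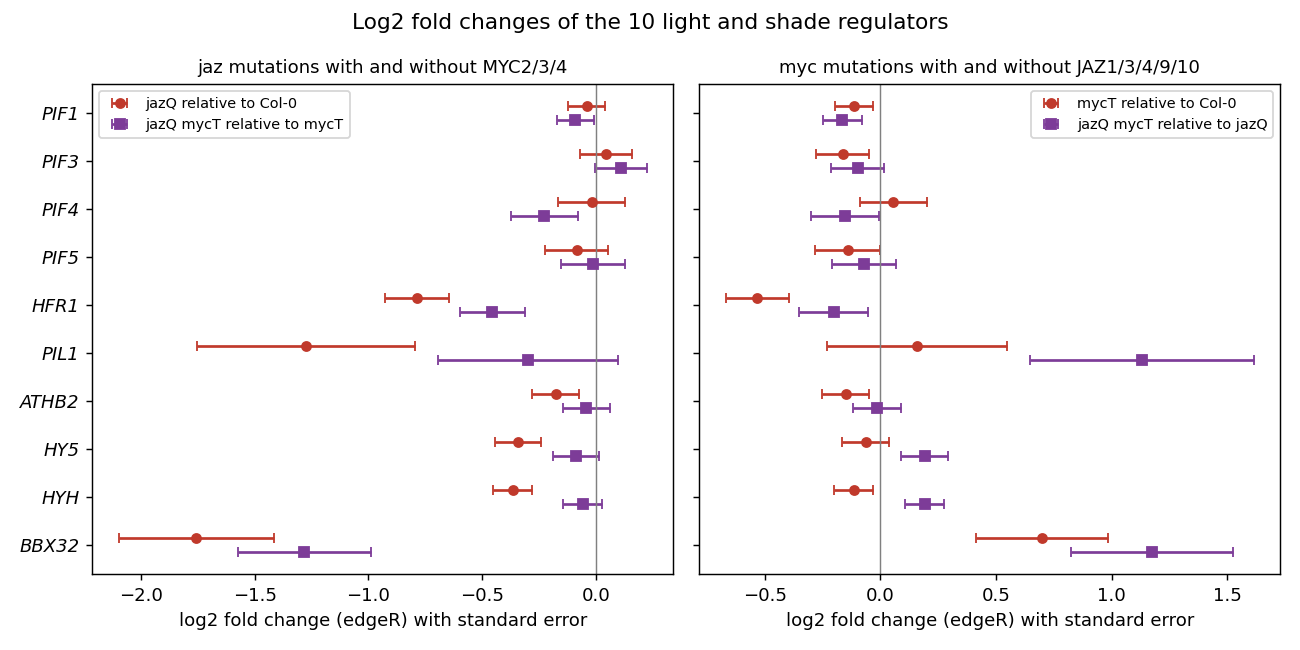
Log2 fold change of each regulator (horizontal axis) with its standard error from the edgeR fit, for the jaz mutations with and without functional MYC2, MYC3 and MYC4 (left) and for the myc mutations with and without the 5 JAZ genes (right). BBX32 lies at −1.76 and −1.28 in the left panel and at 0.70 and 1.17 in the right panel; most PIF, ATHB2, HY5 and HYH points lie close to 0.

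In jazQ relative to Col-0, 3 of the 10 (BBX32, HYH and HFR1) met the adjusted p cutoff of 0.05, beside 2.86% of all genes tested. The selection used this comparison and so fixed that count in part. The count is a description and not a test, and nothing is read from it. In jazQ mycT relative to mycT, 1 of 10 passed, BBX32, while 7.83% of all genes passed in either direction and 3.77% were lower. At an unadjusted p under 0.05 there were 2, BBX32 and HFR1, and 23.5% of all genes reached that level. The same 2 genes had jazQ mycT libraries wholly below mycT, against 11.8% of all genes. With Col-0 as the reference for jazQ mycT, HFR1 was the 1 gene of 8 tested that passed, beside 5.48% of all genes in either direction and 2.68% lower. In mycT relative to Col-0 none of 8 passed (1.8% of all genes), with 1 at an unadjusted p under 0.05 (17% of all genes). In jazQ mycT relative to jazQ none of 8 passed (2.21% of all genes), with 1 at an unadjusted p under 0.05 (15.5% of all genes). For the interaction 0 of 8 passed (0.579% of all genes), with 0 at an unadjusted p under 0.05 (11.3% of all genes). DESeq2 gave the same counts of 0 in these 3 comparisons.

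The genes that surround these regulators in the pathway were counted in jazQ mycT relative to mycT. The photoreceptor genes (5 phytochromes, CRY1, CRY2 and UVR8) had 0 of 8 called, with log2 fold changes from −0.08 to 0.19 (PHYA, the highest, adjusted p = 0.125). PHYA passed under 1 of 22 alternatives, the fit without jazQ mycT replicate 1 (0.29, edgeR, adjusted p = 0.0184). As a description, PHYA was at 50.05 to 56.2 TPM in jazQ and at 39.2 to 40.3 TPM in Col-0. The genes of the COP1/SPA and DET1 repressor complexes had 0 of 8 called, from −0.16 to 0.20 (COP10 the highest, adjusted p = 0.311). Of the photoreceptor genes 1, and of the repressor genes 0, had an unadjusted p under 0.05, beside 23.5% of all genes. Of the 3 other PIF genes, 2 were lower, beside 3.77% of all genes. PIF7, which raises auxin synthesis in shade, was at 16.4, 16.7 and 16.7 TPM in mycT and 9.58, 12.96 and 10.6 TPM in jazQ mycT. These groups did not overlap (log2 fold change −0.58 ± 0.11 SE, edgeR, adjusted p = 0.00813). PIF8 had −0.47 ± 0.09 (adjusted p = 0.00937). Its means were 25.3, 24.1, 30.4 and 21.9 TPM in Col-0, jazQ, mycT and jazQ mycT, so mycT was the highest. Relative to Col-0, PIF8 had 0.35 in mycT and −0.12 in jazQ mycT, and neither passed (edgeR, adjusted p = 0.077 and 0.515).

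Of 13 shade-induced genes, 1 was lower in jazQ mycT than in mycT (3.77% of all genes), with a median log2 fold change of −0.12 over the list and −0.00409 over all genes tested. This was IAA29, an auxin-response repressor gene, with 3.99 ± 0.375 TPM for mycT and 2.06 ± 0.630 TPM for jazQ mycT (SD, n = 3; log2 fold change −0.96 ± 0.24 SE, edgeR, adjusted p = 0.0322). Of 11 genes that HY5 is known to bind and activate, 3 were lower, beside 3.77% of all genes. All 11 had negative values (median −0.32), as had 50.9% of all genes. ELIP1, an early light-induced chlorophyll-binding protein gene, had 37.2, 31.1 and 29.8 TPM in mycT and 14.8, 16.1 and 13.6 TPM in jazQ mycT, with no overlap (−1.14 ± 0.21, adjusted p = 0.0071). RUP2 and RUP1, which restrain the UV-B receptor UVR8, had −0.70 ± 0.12 (adjusted p = 0.00367) and −0.49 ± 0.12 (adjusted p = 0.0271). ELIP1 and RUP2 passed under all 22 alternatives. Leaving out mycT replicate 1 or 2 or any jazQ mycT replicate ended the call of RUP1 (adjusted p up to 0.0862), and the same libraries except jazQ mycT replicate 3 ended that of IAA29 (adjusted p up to 0.11). HY5 and HYH themselves did not pass in the same comparison, as given before.

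**Figure D3:**
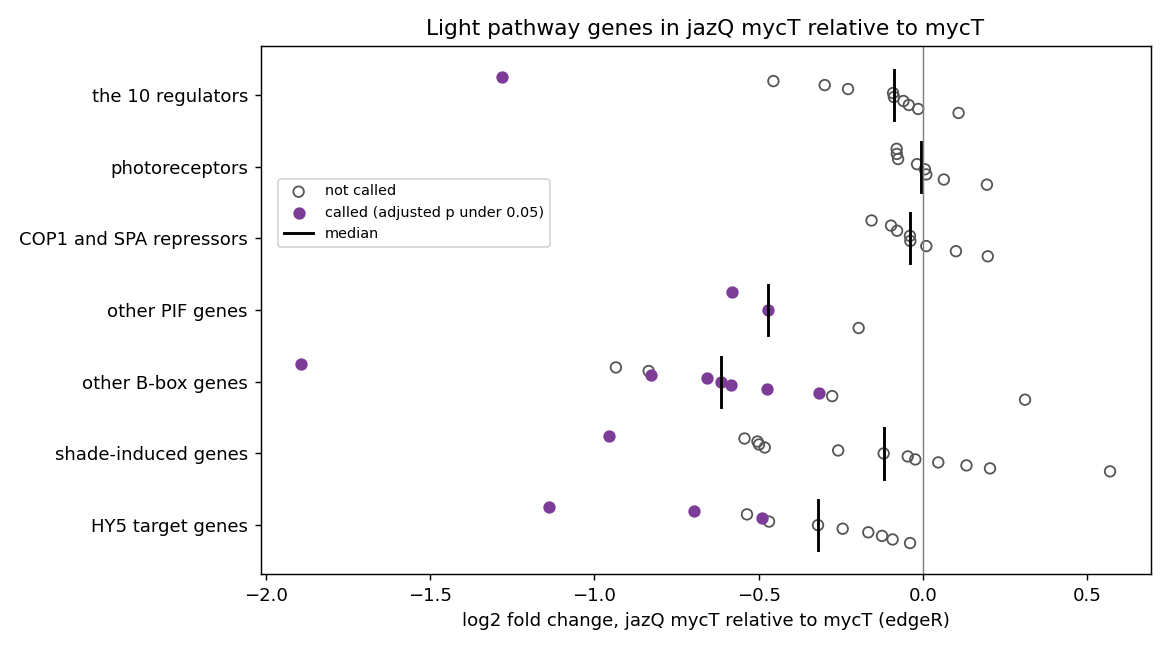
Log2 fold change in jazQ mycT relative to mycT (horizontal axis) for the 10 regulators and 6 lists of light pathway genes; each circle is a gene, filled where the adjusted p was under 0.05, and the black line is the median of the list. The B-box genes and HY5 targets have medians of −0.61 and −0.32, whereas photoreceptor and COP1/SPA genes gather near 0.

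BBX32 was joined by other B-box genes, from a list chosen with earlier results of these data known. Of 12 listed, 11 were tested, and 7 were lower in jazQ mycT than in mycT, relative to 3.77% of all genes. The list had a median of −0.61, and 8 genes did not overlap between the groups, relative to 11.8% of all genes. In jazQ relative to Col-0, as a description, the median was −0.36. There 10 of the 11 had negative values, with BBX21 at −0.01. BBX23 had at most 1 count in a library and was not tested. BBX30, whose product is a small B-box protein, was at 5.40, 4.37 and 3.19 TPM in mycT and 0.78, 1.42 and 1.39 TPM in jazQ mycT (−1.89 ± 0.36, edgeR, adjusted p = 0.00821), from 7 to 11 counts per library in jazQ mycT. Its levels in Col-0 were 5.18, 3.01 and 2.53 TPM and in jazQ 0.89, 1.06 and 1.88 TPM, so both lines with jaz mutations were below both lines without.

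BBX24, a repressor of HY5 activity and the most abundant of the list, was at 118, 126 and 118 TPM in mycT and 75.1, 83.0 and 81.9 TPM in jazQ mycT (−0.59 ± 0.08, edgeR, adjusted p = 0.000685). Its relative BBX25 had −0.61 ± 0.10 (adjusted p = 0.00275). BBX28, which interferes with HY5 binding to DNA, had −0.83 ± 0.22 (adjusted p = 0.0368), and BBX18, a negative regulator of de-etiolation, had −0.66 ± 0.18 (adjusted p = 0.0459). Both activators of light responses in the list that passed were lower as well, BBX22 with −0.48 ± 0.10 (adjusted p = 0.0156) and BBX21 with −0.32 ± 0.06 (adjusted p = 0.00676). BBX20 alone had a positive value, 0.31 ± 0.12, and did not pass (adjusted p = 0.148).

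Without jazQ mycT replicate 1, 6 of these B-box genes were lower. The count was 4 without mycT replicate 1, mycT replicate 2 or jazQ mycT replicate 2. BBX24 and BBX25 passed under all 22 alternatives and BBX30 under all 21 that tested it. BBX21 passed under 19 of 22 (adjusted p up to 0.0655), and no left-out library ended its call. For BBX22, 3 left-out libraries ended the call (mycT replicates 1 and 2 and jazQ mycT replicate 2, adjusted p up to 0.0711). BBX28 lost its call without any of 7 libraries and BBX18 without any of 9 (adjusted p up to 0.142 and 0.168). Called genes included B-box proteins that repress light responses and others that promote them. In mycT relative to Col-0 none of the 11 passed, with 1 at an unadjusted p under 0.05, beside 17% of all genes. In jazQ mycT relative to Col-0, 4 of 11 (BBX22, BBX24, BBX25 and BBX30) were lower, beside 2.68% of all genes. BBX30 lost that call without Col-0 replicate 1 or 2 or any jazQ mycT replicate (adjusted p up to 0.166). CHS, the flavonoid entry enzyme among the HY5 targets, rose in mycT relative to Col-0 by 0.42 ± 0.07 (edgeR, adjusted p = 0.0141), where 0.957% of all genes were higher. That call did not hold without Col-0 replicate 2 or mycT replicate 1 (adjusted p up to 0.0924), and 3 of the 7 shoot markers (RBCS1A, RCA and PSBO1) were higher in the same comparison. All 3 of these calls ended without mycT replicate 1, and they passed under 8, 15 and 10 of 22 alternatives. The part of the shoot markers in the CHS result was not tested. The root marker sum was lowest in jazQ mycT, with no overlap with the other genotypes, and its part in the B-box, HY5 target, PIF7, PIF8 and IAA29 results was not tested.

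**Figure D4:**
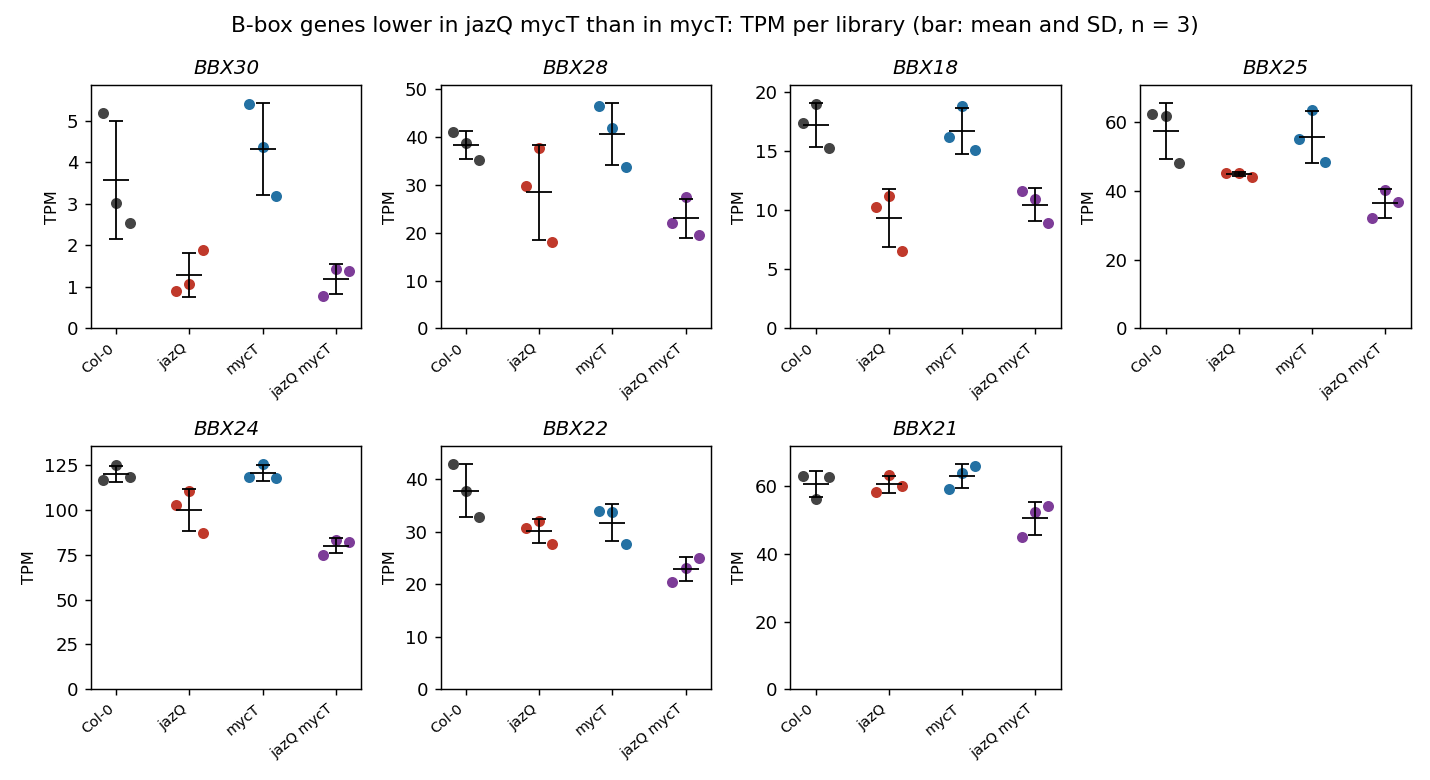
Level in TPM (vertical axes, each from 0) of the 7 B-box genes that were lower in jazQ mycT than in mycT, in every library; points are libraries and black bars the mean and SD of 3. For BBX24 the jazQ mycT libraries lie between 75.1 and 83.0 TPM and those of mycT between 118 and 126 TPM.

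Over the 12 libraries and 15914 genes with a mean of at least 5 CPM, the gene whose log2 CPM followed BBX32 most closely was DOGT1, a glucosyltransferase gene (Pearson r = 0.976, Spearman rho = 0.930). AT3G15760 (r = 0.962) and the ethylene response factor gene ERF2 (r = 0.955) came next. For HYH the closest were NIP5;1, a boric acid channel gene (r = 0.974), SPA3 (r = 0.926) and AT5G39940 (r = 0.920). These libraries share the 4 genotypes, so the correlations describe the pattern over genotypes and no more.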

How the data were processed

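RNA was measured in 12 libraries of whole seedlings, 3 for each of 4 genotypes, grouped by their labels. Per the labels and the methods of the study, the authors filtered single-end reads and ran RSEM v1.2.11 on the TAIR10 gene models. Expected counts were deposited unnormalized and are whole numbers. TPM values, also deposited, are scaled by the authors' tool for transcript length and library total, with 2 decimals. No source used here gives the strand of the libraries.

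The 10 regulators and the lists were chosen with earlier results of these data known. Under R v4.3.3, counts were tested by edgeR v4.0.16 (quasi-likelihood test, TMM, filterByExpr, all 12 libraries, a term for each genotype), which left 20888 genes. Calls were made at a Benjamini-Hochberg adjusted p under 0.05 over all of them. Intervals are 95% intervals of the log2 fold change. The procedure was tested on simulated data. DESeq2 v1.42.0, limma v3.58.1 on log2(TPM + 1) and log2(TPM + 0.1), other filters, a replicate block and leaving out each library were alternatives. With limma, genes had a mean of at least 1 TPM, or no filter. DESeq2 size factors, a mean of at least 1 CPM, and leaving out rRNA and organelle genes were also tried. The alternatives for the B-box, HY5 target and root marker counts were chosen after seeing the data. Of genes outside the 10 regulators, those called in jazQ mycT relative to mycT or in mycT relative to Col-0 were named, or else the one with the largest change, together with the 3 closest patterns to BBX32 and HYH. Genes named beyond this were chosen after their values were seen. Tables and plots were made with matplotlib v3.10.9 and pandas v2.3.3, which rest on numpy v2.4.6, under Python v3.11.15. Positions and upstream sequences were read by locus from RefSeq TAIR10.1, where all 10 regulators matched. Same-numbered Col-0 and mycT libraries deviated together (correlations of 0.381, 0.244 and 0.505 for numbers 1, 2 and 3), so they may be paired. The main tests had no term for such a pairing. The replicate block, fitted over all 12 libraries, was the only alternative with one. No other pair of genotypes had all 3 correlations over 0.1.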

Additional observations from a re-analysis of the deposited data

How the results depend on the processing

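The fall of HFR1 in jazQ mycT relative to Col-0 passed under all 22 alternatives (log2 fold change −1.11 to −0.89, adjusted p 1.71e-05 to 0.0107). The fall of BBX32 in jazQ mycT relative to mycT kept its direction under all 22 and passed under 17 (adjusted p 0.00012 to 0.084). With only the compared genotypes in the fit, 0 of the 10 regulators passed there (BBX32 adjusted p = 0.0546), and with 1 library left out the count ranged from 0 to 2 and the log2 fold change of BBX32 from −1.91 to −1.04. In mycT relative to Col-0 the count ranged from 0 to 1, the call being HFR1 without Col-0 replicate 3. The 7 B-box genes lower in jazQ mycT than in mycT became 4 with limma on log2(TPM + 0.1) and 3 with limma on log2(TPM + 1) without a filter, and 4 to 7 with 1 library left out. The 3 HY5 targets became 2 to 4 with 1 library left out, and the 4 root markers 2 with limma on log2(TPM + 1) without a filter and 2 to 4 with 1 library left out. The cause of these shifts was not tested. Fits with a library left out or with only the compared genotypes held fewer samples, whereas the limma fits used all 12 libraries.

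With the replicate number as a block, the calls among the 10 regulators were as before. In mycT relative to Col-0, where same-numbered libraries deviated together, there were 0 (HFR1 −0.54, edgeR, adjusted p = 0.0663). In jazQ mycT there was 1 relative to Col-0 and 1 relative to mycT. Under the block, 7 B-box genes, 4 HY5 targets and 4 root markers were lower in jazQ mycT than in mycT. Over the 10 regulators and the tested comparisons, 863 values kept direction and call, 24 changed sign, none of them called, 2 gained and 5 lost the call. The sign changes included PIL1, which went from −0.14 to 0.286 relative to Col-0 in jazQ mycT without Col-0 replicate 2, and from 0.16 to −0.102 in mycT without Col-0 replicate 1. Between jazQ mycT and mycT, PIF5 ranged from −0.0908 to 0.0812 and ATHB2 from −0.134 to 0.0269 with 1 library left out. In mycT relative to Col-0, PIF4 was −0.04 with limma at either pseudocount and PIL1 was −0.01 with limma without a filter. Depth limited PIL1 (2 to 14 counts per library) and BBX30, and left BBX23 and NRT2.1 untested.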
